A study of Homo sapiens with 12 samples.

Results

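The proteasome is the protease complex that degrades ubiquitin-tagged proteins, and these data give the mRNA levels of its subunits and assembly factors in JJN3, a human multiple myeloma cell line. Members were all genes whose symbol is PSMA, PSMB, PSMC, PSMD, PSME, PSMF or PSMG followed by a number, plus POMP. The rule uses symbols and no measured value, although it was set with earlier results of these data known. This gave 49 of the 59276 gene symbols in the deposited table.

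Bulk RNA was sequenced from 12 samples in 4 groups of 3. Unmodified JJN3 cells were given the solvent DMSO or 10 µM MS023, an inhibitor of type I protein arginine methyltransferases, for 3 days. Cas9-expressing JJN3 cells held an inducible guide, either a control (isgCtrl) or iPRMT1_1 against PRMT1 (PRMT1-KO), and both lines received doxycycline for 3 days. By the study's methods the Cas9 cells were sorted on an mCherry reporter and selected with puromycin for the guide virus, so each genotype is a selected pool with 1 guide, and both chemical groups lack the virus, Cas9 and doxycycline. The labels do not say whether the 3 samples of a group came from separate cultures, so p-values measure only the spread between these samples.

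The core of the complex, the 20S particle, is a barrel of outer alpha rings and inner beta rings. PSMB5, PSMB6 and PSMB7 carry its active sites, and in the immunoproteasome, which interferon-exposed and many blood cells build, PSMB8, PSMB9 and PSMB10 take their places. The 19S cap, made of a base with ATPases and a lid, recognises ubiquitin chains and feeds substrates into the barrel. Dedicated chaperones put the parts together. Myeloma cells secrete large amounts of immunoglobulin and are known for their sensitivity to proteasome inhibitors.

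Each value is in TPM, a transcript abundance normalised for length and library total, back-calculated from the deposited log2(TPM+1), and fold changes are differences of log2(TPM+1). TPM are per transcript length, so levels of different genes can be set side by side, but they add up to the same total in each sample and hold no read counts, so the depth behind a value is unknown from them. A gene was tested when its mean log2(TPM+1) was above 1 in either group of a comparison, which 48 of the 49 members met. PSMB11, the thymus-restricted catalytic subunit, was listed at 0 in all 12 samples. In the text a gene rose or fell when its Benjamini-Hochberg adjusted p, over all genes tested in limma, was under 0.05, and it was called when its absolute log2 fold change was above 0.48 as well. Values came from bulk cultures, so fewer cells that express a gene and less of its RNA in each cell cannot be told apart.

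The targeted gene PRMT1 was at 849 to 867 TPM with the control guide and at 301 to 309 TPM with the guide against it (log2 fold change -1.50, SE 0.04, limma, Benjamini-Hochberg adjusted p = 0.00072). Pearson's r between replicates was 0.993 to 0.996 over all genes. All 6 plasma cell markers had a group mean above 1 TPM in every group, with sums of 702 to 740 TPM in DMSO, 1102 to 1140 in MS023, 651 to 666 with the control guide and 626 to 629 in PRMT1-KO. MZB1, among them, was at 105 TPM in DMSO, 178 TPM in MS023 and 2.01 TPM in isgCtrl. In PRMT1-KO it was at 1.01 TPM, barely above that limit. T cell markers summed to 0.108 to 0.736 TPM, monocyte markers to at most 3.00 TPM and fibroblast markers to at most 9.36 TPM.

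RefSeq promoters, from 250 bases before to 50 bases after each gene's start on GRCh38.p14, were at hand for 43 of the 49 members. PSMA7, PSMB1, PSMB6, PSMB7, PSMD4 and PSMG3 had no entry. The core of the interferon-stimulated response element (GAAANNGAAA, either strand), the letters through which interferon regulatory factors bind, was present in 6 of the 43 member promoters and in 3.65% of all 27305 promoters. The members were PSMA4, PSMB4, PSMB10, PSME1, PSME2 and PSMG4. The 4 with the core within 100 bases before the start on the gene's own strand are shown. PSMB10, PSME2 and PSMG4 share the letters GAAAGCGAAA, and PSMB4 holds GAAAAAGAAA. Each stretch is 30 bases, 5′ to 3′ on the gene's strand, with the core in capitals:
PSMB10: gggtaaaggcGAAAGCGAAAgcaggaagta
PSME2: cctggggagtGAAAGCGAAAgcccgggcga
PSMG4: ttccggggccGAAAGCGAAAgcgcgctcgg
PSMB4: tcgtctacagGAAAAAGAAAgaaatgacac
They lie at chr16:67936852-67936881 on the minus strand, chr14:24146619-24146648 on the minus strand, chr6:3258904-3258933 on the plus strand and chr1:151399495-151399524 on the plus strand. Counted from the RefSeq start, the core begins at -21 in PSMB10, -28 in PSME2, -33 in PSMG4 and -68 in PSMB4. GENCODE v44 annotates exons of longer transcripts of the same gene over 30 of the 30 bases in PSME2 and PSMG4 and over 13 in PSMB10. With MS023, PSMB10 and PSMB4 rose, PSMG4 fell, and PSME2 did not pass the test, as given below gene by gene. Any part of the core in these changes was not tested.

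Of the other letters searched, on both strands, CCGGAAG, the core bound by ETS factors, was in 14 member promoters (32.6%) against 10.7% of all, and overlapped none of the printed cores. TGACNNNGC, the core of the antioxidant response element bound by NFE2L1 and NFE2L2, was in 13 (30.2%) against 13.6%. CCAAT was in 19 (44.2%) against 35.7%, TTCNNNGAA in 5 (11.6%, no immunoproteasome gene among them) against 7.88%, and the cyclic AMP element TGACGTCA in 0 against 1.98%. Among the assembly factors, PSMG4, POMP and PSMD9 held the ETS letters, and PSMG1, PSMG2, PSMD5 and PSMD9 the antioxidant letters.

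In untreated cells the classes differed in level. With DMSO the median member was at 543 TPM among the 7 alpha subunits, 363 TPM among the 7 constitutive beta subunits, 161 TPM among the 9 base subunits, 153 TPM among the 8 lid subunits, 132 TPM among the 5 immunoproteasome genes and 85.2 TPM among the 8 assembly factors. PSMB4, a structural beta subunit, had the highest level at 1044 ± 20.9 TPM (SD, n = 3), followed by the alpha subunit PSMA7 at 689 ± 10.5 TPM. PSMB2 was the lowest constitutive beta gene at 87.9 ± 8.06 TPM, so subunits present in equal number in the finished barrel spanned 11.9-fold in mRNA. The lowest members above 2 TPM were PSMD5, a chaperone of the base, at 16.5 ± 0.734 TPM and PSME4, a large activator that caps the barrel, at 16.4 ± 0.350 TPM. These neighbours in the order overlapped sample by sample. PSMA8, the testis-restricted alpha subunit, was at 1.58 ± 0.383 TPM.

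**Figure D1:**
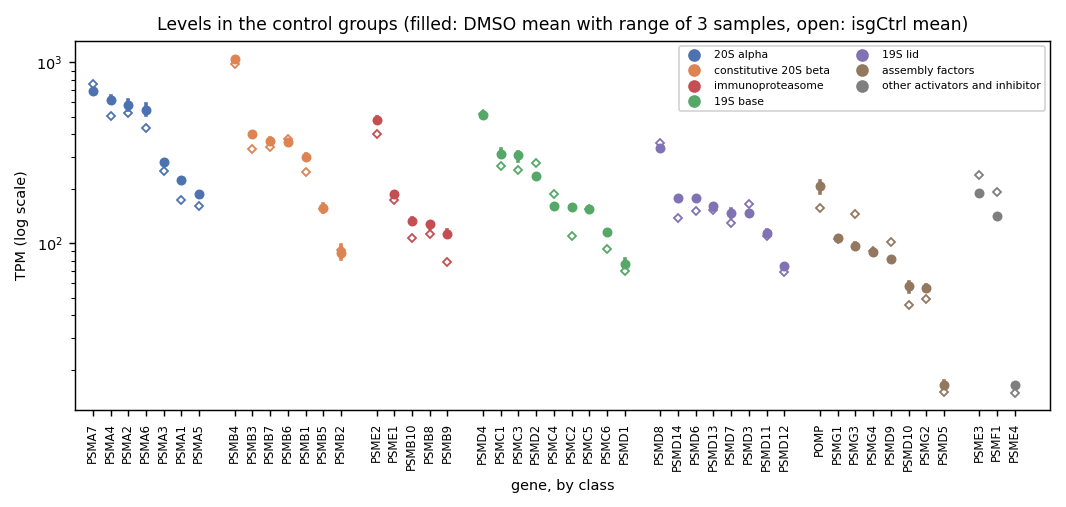
Mean TPM (log scale) of 47 members in the control groups, by class, where filled points are DMSO means with bars for the range of 3 samples, open points are isgCtrl means, and PSMA8 and PSMB11 are left out. PSMB4 stands highest at 1044 TPM in DMSO, and PSMD5 and PSME4 lowest at 16.5 and 16.4 TPM.

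The first question was whether blocking type I methyltransferases changed these genes. With MS023 the members did not move as a block: alpha subunits and chaperones were mostly lower, while several constitutive beta subunits were higher. Of the 48 tested members, 21 (43.8%) had an adjusted p under 0.05, 6 higher and 15 lower, beside 48.8% of all genes tested (18.4% higher, 30.4% lower). With the fold threshold 8 members (16.7%) were called, PSMB6 and PSMC4 higher and PSMG1, PSMG3, PSMG4, PSMC6, PSMD1 and PSMD11 lower, beside 30.9% of all genes (11.6% higher, 19.3% lower). The share called was thus below that of all genes. The members' median log2 fold change was -0.08, and that of all genes was -0.11. In 36 of the 48 members the DMSO and MS023 samples did not overlap, against 59.5% of all genes tested.

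The split between directions depended on the scaling. After median-ratio scaling, which moved the median of all genes by 0.09, 3 members were called higher and 4 lower, beside 14.8% and 15.2% of all genes. Without the fold threshold 13 were higher and 12 lower, beside 24.0% and 24.5% of all genes. PSMC6 and PSMG1 were then not called, PSMB10 was, and the other 6 members stayed called. Quantile normalization gave the same 7 called members.

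**Figure D2:**
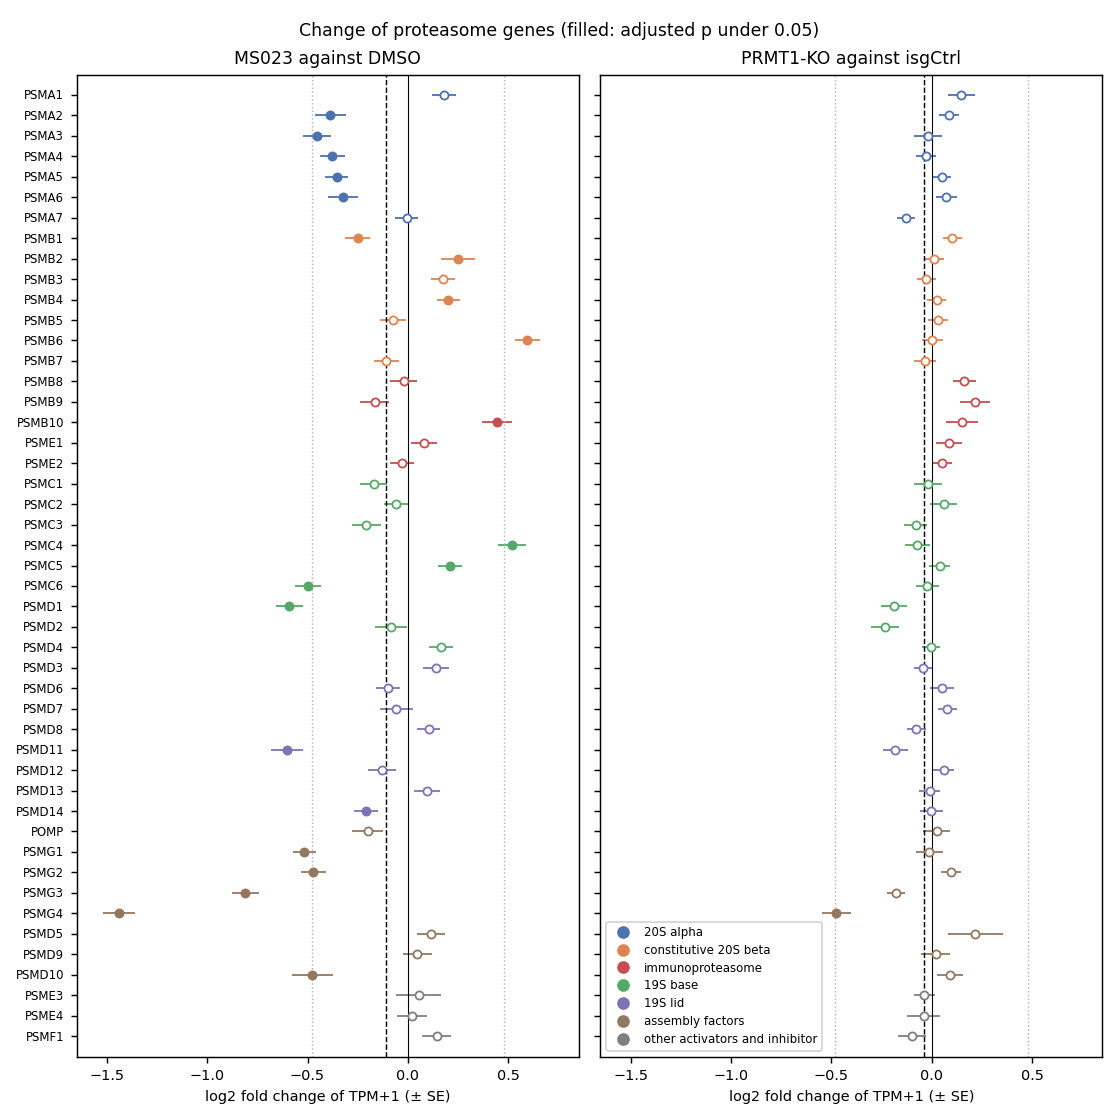
Log2 fold change of TPM+1 with its SE for 47 members by class, MS023 against DMSO on the left and PRMT1-KO against isgCtrl on the right, where filled points have an adjusted p under 0.05, dashed lines mark the median of all genes tested and dotted lines ±0.48. PSMG4 lies farthest to the left in both panels, at -1.44 and -0.47.

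The largest changes, in PSMG4 and PSMG3, were in chaperones that build the alpha ring. PSMG1 and PSMG2 work as one heterodimer and PSMG3 and PSMG4 as another, and all 4 fell with MS023, with a median log2 fold change of -0.66. PSMG4 (chromosome 6, 3231403 to 3303373, plus strand, hg38) had 89.0, 89.6 and 88.0 TPM with DMSO and 35.5, 30.4 and 30.5 TPM with MS023. All 3 treated samples were below every control (log2 fold change -1.44, SE 0.08, limma, Benjamini-Hochberg adjusted p = 0.000109), and this was the largest change of any member.

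PSMG3 (chromosome 7, 1567332 to 1571005, minus strand) had 101, 94.2 and 96.0 TPM with DMSO and 53.0, 58.2 and 53.5 TPM with MS023, again with no overlap. Its log2 fold change was -0.81, SE 0.07 (limma, Benjamini-Hochberg adjusted p = 0.000381). The genes of the other heterodimer, PSMG1 and PSMG2, moved less. PSMG1 went from 106 ± 0.887 to 73.9 ± 1.76 TPM (SD, n = 3, log2 fold change -0.52, SE 0.06, limma, Benjamini-Hochberg adjusted p = 0.000948). PSMG2 went from 56.4 ± 1.84 to 40.4 ± 1.01 TPM (log2 fold change -0.47, SE 0.06, limma, Benjamini-Hochberg adjusted p = 0.00168). The 4 genes kept their adjusted p under 0.05 under median-ratio scaling and quantile normalization and with any 1 sample left out.

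The other assembly factors did not share one direction. PSMD10 (gankyrin), a chaperone of the 19S base, had 53.5, 58.8 and 61.1 TPM with DMSO and 45.8, 41.6 and 36.7 TPM with MS023 and fell by 0.48 on the log2 scale (limma, Benjamini-Hochberg adjusted p = 0.0105). The remaining base chaperones, PSMD5 and PSMD9, had log2 fold changes of 0.12 and 0.05 that did not pass the test. POMP, which brings the beta subunits onto the alpha ring, had 190.0, 220.2 and 207 TPM with DMSO and 181, 182 and 173 TPM with MS023. The groups did not overlap, yet the change did not pass (log2 fold change -0.20, SE 0.08, limma, Benjamini-Hochberg adjusted p = 0.0719). It did pass without DMSO replicate 1 (limma, Benjamini-Hochberg adjusted p = 0.048), with a variance trend and in the fit of all 12 samples. In all, 5 of the 8 assembly factors fell and none rose on the deposited scale, beside 30.4% and 18.4% of all genes. The factors' median log2 fold change was -0.47, beside -0.11 for all genes. After median-ratio scaling or quantile normalization the same 5 fell and PSMD5 rose.

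**Figure D3:**
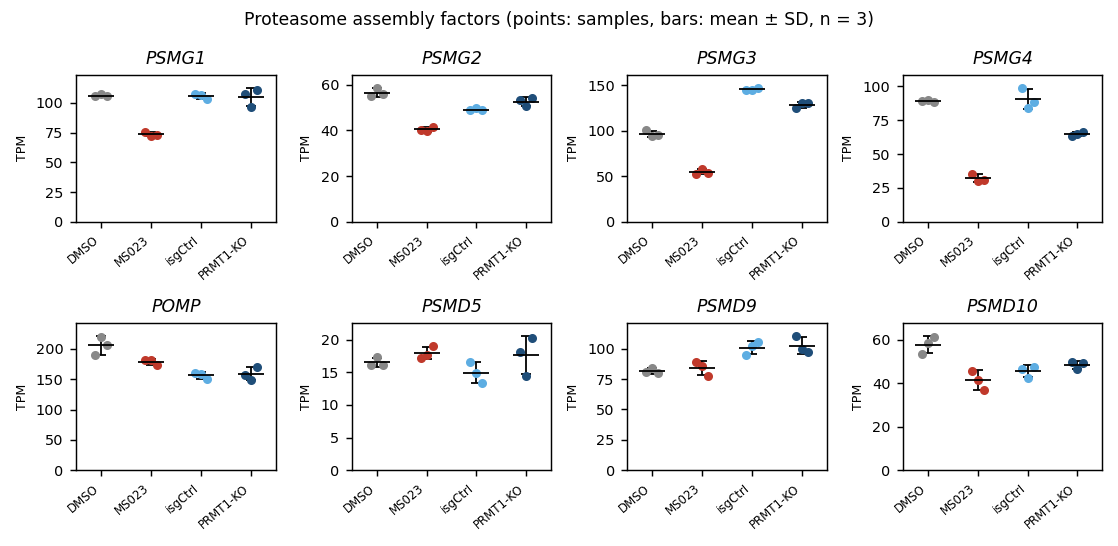
TPM of the 8 assembly factors in each group, where points are samples and bars are mean ± SD (n = 3). PSMG4 was 88.9 TPM in DMSO, 32.2 in MS023, 90.5 in isgCtrl and 64.7 in PRMT1-KO on average, and PSMG3 was highest in isgCtrl.

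Most alpha subunits, which form the gate of the barrel, were lower with MS023. PSMA2, PSMA3, PSMA4, PSMA5 and PSMA6 fell (5 of 7, beside 30.4% of all genes tested). PSMA1 and PSMA7 had log2 fold changes of 0.18 and -0.01 that did not pass. PSMA3 changed most, from 277, 288 and 275 TPM to 211, 191 and 211 TPM (log2 fold change -0.45, SE 0.07, limma, Benjamini-Hochberg adjusted p = 0.0032). PSMA2, from 547 to 616 to 416 to 461 TPM, was next at -0.39. None of the 7 reached the fold threshold, and the class median was -0.36. Summed over the 7 genes the samples had 3011 to 3234 TPM with DMSO and 2593 to 2692 TPM with MS023. Under median-ratio scaling PSMA6 no longer passed and PSMA1 rose (log2 fold change 0.28).

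Constitutive beta subunits leaned the other way, with a median log2 fold change of 0.17. Beside 18.4% of all genes that rose and 30.4% that fell, 3 of these 7 subunits rose (PSMB2, PSMB4 and PSMB6) and 1 fell (PSMB1). Their summed level was 2690 to 2738 TPM with DMSO and 3001 to 3107 TPM with MS023. PSMB6, the caspase-like catalytic subunit (chromosome 17, 4796144 to 4798502, plus strand), had 367, 351 and 371 TPM with DMSO and 539.6, 566 and 541 TPM with MS023. Treated samples were all above the controls (log2 fold change 0.60, SE 0.06, limma, Benjamini-Hochberg adjusted p = 0.000732). The structural subunits changed less, PSMB1 by -0.25, PSMB2 by 0.25 and PSMB4 by 0.20 on the log2 scale. PSMB1 did not pass under median-ratio scaling or without DMSO replicate 2 or MS023 replicate 1, nor PSMB4 under quantile normalization. With 1 sample left out PSMB2 passed only without DMSO replicate 1 (limma, Benjamini-Hochberg adjusted p from 0.0214 to 0.127 over the 6 fits) and PSMB4 only without MS023 replicate 3 (limma, Benjamini-Hochberg adjusted p from 0.0488 to 0.0843). PSMB2 also failed with a pseudocount of 0.1 and with all genes above 0 fitted.

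The other constitutive active sites did not pass the test. PSMB5, the chymotrypsin-like subunit to which bortezomib binds (chromosome 14, 23016543 to 23035230, minus strand), had 153, 149 and 164 TPM with DMSO and 145, 148 and 150.0 TPM with MS023. These values overlapped (log2 fold change -0.07, SE 0.07, limma, Benjamini-Hochberg adjusted p = 0.39), and the sign turned under median-ratio scaling. PSMB7, the trypsin-like subunit, had 351, 383 and 367 TPM and 342, 342 and 337 TPM (log2 fold change -0.11, SE 0.06, limma, Benjamini-Hochberg adjusted p = 0.196). Its treated samples lay below the controls without overlap, and it passed with a variance trend (limma, Benjamini-Hochberg adjusted p = 0.0456).

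Of the immunoproteasome genes PSMB10 alone passed the test with MS023. PSMB10 (MECL-1; chromosome 16, 67934506 to 67936864, minus strand) had 127, 133 and 138 TPM with DMSO and 175, 194 and 173 TPM with MS023. It rose without overlap (log2 fold change 0.44, SE 0.07, limma, Benjamini-Hochberg adjusted p = 0.00429), just under the fold threshold. A same-strand gene model, ENSG00000261884, shares 39.4% of PSMB10's exon bases, so reads could be split between the models.

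PSMB8 (LMP7) and PSMB9 (LMP2) lie side by side in the major histocompatibility complex on chromosome 6 (32840717 to 32844679, minus strand, and 32844136 to 32859851, plus strand). PSMB8 had 122, 131 and 131 TPM with DMSO and 127, 130.4 and 121 TPM with MS023, fully overlapping (log2 fold change -0.02, SE 0.07, limma, Benjamini-Hochberg adjusted p = 0.817). PSMB9 had 109.9, 109.5 and 118 TPM and 105, 101 and 94.6 TPM, lower in each treated sample but short of the test (log2 fold change -0.16, SE 0.07, limma, Benjamini-Hochberg adjusted p = 0.107), except with a variance trend (limma, Benjamini-Hochberg adjusted p = 0.0389). They share 139 exon bases on opposite strands, and strand use in quantification is not given in the sources used here.

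PSME1 and PSME2 encode PA28, the ring that opens the barrel in immunoproteasomes. PSME1 had 189, 191 and 180.2 TPM with DMSO and 204, 199.9 and 189 TPM with MS023. PSME2 had 469, 499 and 478 TPM and 482, 469 and 467 TPM. Both overlapped between groups, with log2 fold changes of 0.08 and -0.03 (limma, Benjamini-Hochberg adjusted p = 0.338 and 0.717). Over the 5 immunoproteasome genes 1 rose and none fell, beside 18.4% and 30.4% of all genes, and the median was -0.02. The signs of PSMB8 and PSME2 turned under median-ratio scaling and quantile normalization.

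**Figure D4:**
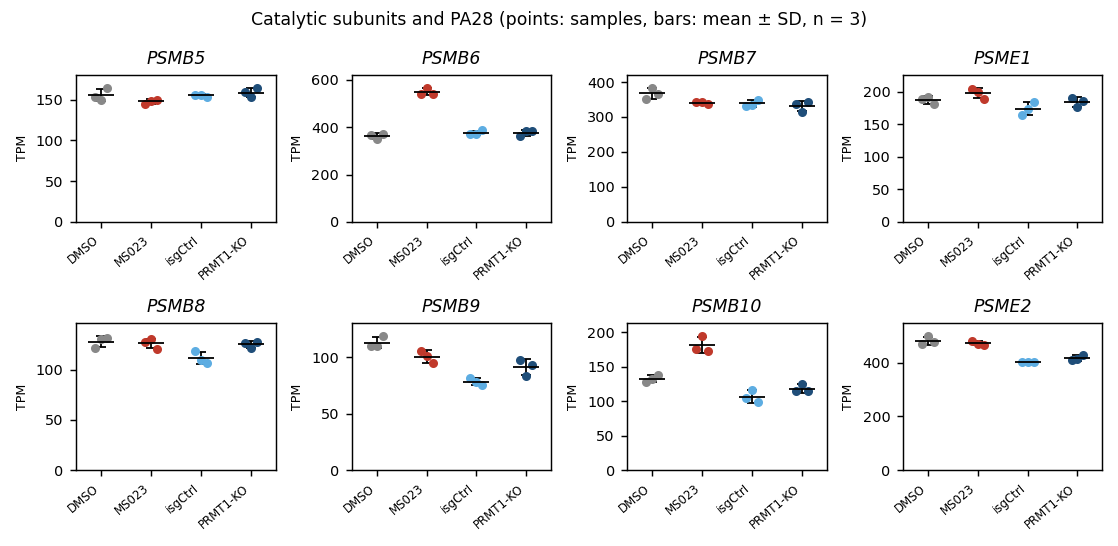
TPM of the constitutive catalytic subunits, the immunoproteasome catalytic subunits and both PA28 genes in each group, where points are samples and bars are mean ± SD (n = 3). PSMB6 (363 to 549 TPM) and PSMB10 (132 to 181 TPM) separate between DMSO and MS023.

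In the 19S cap changes went both ways. Of the 9 base members 2 rose (PSMC4 and PSMC5) and 2 fell (PSMC6 and PSMD1), beside 18.4% and 30.4% of all genes. The base median was -0.08. PSMC4, PSMC5 and PSMC6 are ATPases of the same ring. PSMC5, at a log2 fold change of 0.21, did not pass in any of the 6 fits with 1 sample left out (limma, Benjamini-Hochberg adjusted p from 0.054 to 0.0857). PSMC4 had 160.3, 163 and 159 TPM with DMSO and 235, 214 and 244 TPM with MS023 (log2 fold change 0.52, SE 0.07, limma, Benjamini-Hochberg adjusted p = 0.00209), and it was not called when MS023 replicate 3 was left out. PSMC6 had 119, 111 and 117 TPM and 82.7, 78.9 and 83.4 TPM (log2 fold change -0.50, SE 0.06, limma, Benjamini-Hochberg adjusted p = 0.00151). PSMC6 was not called without DMSO replicate 1 or MS023 replicate 2. Members of the ring thus separated from their controls in opposite directions.

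PSMD1, the large scaffold of the base (chromosome 2, 231056845 to 231173116, plus strand), had 81.3, 73.9 and 73.5 TPM with DMSO and 49.9, 51.4 and 49.3 TPM with MS023. No sample overlapped (log2 fold change -0.59, SE 0.07, limma, Benjamini-Hochberg adjusted p = 0.00109). The ubiquitin receptor PSMD4 and the scaffold PSMD2 had log2 fold changes of 0.17 and -0.08 that did not pass, although PSMD4 did after median-ratio scaling.

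Among the 8 lid members 2 fell (25.0%) and none rose, beside 30.4% and 18.4% of all genes, and the median was -0.08. PSMD11, the lid subunit that braces the cap against the barrel (chromosome 17, 32444379 to 32483319, plus strand), had 118, 112 and 109 TPM with DMSO and 70.1, 71.8 and 81.3 TPM with MS023. The treated samples were all lower (log2 fold change -0.60, SE 0.08, limma, Benjamini-Hochberg adjusted p = 0.00187). PSMD14, the deubiquitinase of the lid, changed by -0.21 (limma, Benjamini-Hochberg adjusted p = 0.03) and did not pass under median-ratio scaling. With 1 sample left out it passed only without MS023 replicate 1 (limma, Benjamini-Hochberg adjusted p from 0.0484 to 0.0821). The other 6 lay between -0.13 (PSMD12) and 0.14 (PSMD3).

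Over the 17 cap subunits 6 had an adjusted p under 0.05, against 9 of the 14 constitutive barrel subunits and 1 of the 5 immunoproteasome genes, beside the 48.8% of all genes. The difference between classes was not tested. PSME3, PSME4 and PSMF1, the remaining activators and inhibitor, had log2 fold changes from 0.02 to 0.14, and none passed. PSMA8, with -0.33, did not pass either.

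The second question was whether losing PRMT1 alone moved these genes. Log2 fold changes in PRMT1-KO cells lay between -0.47 and 0.22, and PSMG4 was the only one of the 48 tested members with an adjusted p under 0.05 (2.08%, beside 1.28% of all genes tested). No member was called, beside 0.781% of all genes, although 8 had an unadjusted p under 0.05 in limma, beside 18.6% of all genes. The median log2 fold change of the members was 0.00 and that of all genes -0.04. In 16 members the groups did not overlap, against 26.7% of all genes.

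PSMG4 had 98.7, 84.2 and 88.5 TPM in isgCtrl and 63.2, 64.9 and 66.0 TPM in PRMT1-KO cells, with every knockout sample below every control. Its log2 fold change of -0.47, SE 0.07 was just inside the fold threshold of 0.48 and so not called (limma, Benjamini-Hochberg adjusted p = 0.0484). The adjusted p was above 0.05, from 0.0519 to 0.184, in 11 of 14 alternative analyses, among them each one with a sample left out. PSMG3 had 145, 145 and 147 TPM and 125, 130.2 and 131 TPM, also without overlap (log2 fold change -0.18, SE 0.05, limma, Benjamini-Hochberg adjusted p = 0.142). PSMG1 and PSMG2 had log2 fold changes of -0.01 and 0.10, and POMP, with 150.3 to 160.1 TPM with the control guide and 149 to 171 TPM in the knockout, of 0.02.

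All 5 immunoproteasome genes had higher means in PRMT1-KO than in isgCtrl cells, with a median log2 fold change of 0.15, and none passed the test. PSMB9 had 81.8, 78.2 and 75.2 TPM in isgCtrl and 97.7, 83.3 and 92.8 TPM in PRMT1-KO cells (log2 fold change 0.21, SE 0.08, limma, Benjamini-Hochberg adjusted p = 0.224). PSMB8 had 119, 109.9 and 107 TPM and 127, 121 and 128 TPM (log2 fold change 0.16, SE 0.06, limma, Benjamini-Hochberg adjusted p = 0.234). Neither pair of groups overlapped.

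PSMB10 had 104, 116 and 98.2 TPM in isgCtrl and 114, 125 and 114 TPM in PRMT1-KO, which overlapped (log2 fold change 0.15). PSME1 had 164, 174 and 183 TPM and 190.3, 176 and 185 TPM (0.08), and PSME2 had 404, 401 and 403 TPM and 410.2, 414 and 429 TPM (0.05). Only the PSME2 samples of these 3 genes were fully apart, with 404 TPM in the highest control and 410.2 TPM in the lowest knockout sample. The PRMT1-KO means of all 5 genes stayed below their DMSO means.

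The constitutive catalytic subunits did not pass the test. PSMB5 spanned 154 to 156 TPM with the control guide and 153 to 164 TPM in the knockout, PSMB6 369.9 to 386 and 361 to 385, and PSMB7 332 to 349 and 314 to 344. Log2 fold changes were 0.03, 0.00 and -0.03, and every pair of ranges overlapped. In the alpha class they spanned -0.13 (PSMA7) to 0.15 (PSMA1). The lowest in the cap were PSMD2 at -0.23, PSMD1 at -0.19 and PSMD11 at -0.18. PSMD1 went from 69.9, 65.9 and 73.9 TPM to 60.1, 59.5 and 64.2 TPM and PSMD11 from 113, 103 and 113 TPM to 93.7, 94.5 and 102 TPM. Both were apart from their controls without passing (limma, Benjamini-Hochberg adjusted p = 0.214 and 0.225).

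The effects of MS023 and of the knockout, which have separate controls, were then compared by their difference in a fit of all 12 samples. An adjusted p under 0.05 was found for 20 members (41.7%), 4 higher and 16 lower, beside 35.6% of all genes tested (14.4% higher, 21.2% lower). After median-ratio scaling they were 11 higher and 14 lower, beside 18.0% and 17.7% of all genes. Called were 7 members (14.6%), beside 24.4% of all genes (9.69% higher, 14.7% lower). PSMB6 (0.59) and PSMC4 (0.59) were higher by MS023 than by the knockout, and PSMG4 (-0.97), PSMG3 (-0.63), PSMG2 (-0.57), PSMD10 (-0.57) and PSMG1 (-0.50) were lower. Thus 5 of the 8 assembly factors were called. For PSMG4, the log2 fold change of -1.44 with MS023 and of -0.47 in the knockout differed (limma, Benjamini-Hochberg adjusted p = 8.16e-05). For PSMB9, with -0.16 and 0.21, the difference of -0.38 passed the test (limma, Benjamini-Hochberg adjusted p = 0.0156), though not under median-ratio scaling, and was not called. The difference for PSMB10 was 0.29 and did not pass (limma, Benjamini-Hochberg adjusted p = 0.0585). It passed under median-ratio scaling, with a variance trend, with replicate numbers as a block and with only genes above 1 in every sample. It also passed without PRMT1-KO replicate 2 or isgCtrl replicate 3. Cas9, guide virus and doxycycline are present in the knockout arm alone, and what they and the inhibitor's other targets add cannot be told apart here.

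Each immunoproteasome catalytic subunit replaces a particular constitutive one, so the balance of each pair was followed within a sample. The immunosubunit's share of the summed TPM of PSMB8 and PSMB5 was 45.2% ± 1.37 (SD, n = 3) in DMSO, 46.1% ± 1.23 in MS023, 41.9% ± 1.14 in isgCtrl and 44.1% ± 0.291 in PRMT1-KO. For PSMB9 and PSMB6 it was 23.7% ± 0.593, 15.5% ± 0.770, 17.3% ± 0.902 and 19.5% ± 1.70 in the same order. For PSMB10 and PSMB7 it was 26.5% ± 0.774, 34.6% ± 1.31, 23.9% ± 1.91 and 26.3% ± 1.97.

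With MS023 the share of PSMB9 was lower and that of PSMB10 higher, each without overlap. On the log2 scale PSMB9 minus PSMB6 changed by -0.76 and PSMB10 minus PSMB7 by 0.55 (two-sided exact permutation test, p = 0.1 each, the smallest that 3 against 3 allow, and 0.2 adjusted over the 6 tests). PSMB8 minus PSMB5 changed by 0.05 (exact permutation p = 0.2, adjusted 0.24). In the knockout the changes were 0.13 for PSMB8 (exact permutation p = 0.1, adjusted 0.2), 0.21 for PSMB9 (p = 0.2, adjusted 0.24) and 0.18 for PSMB10 (p = 0.3, adjusted 0.3), all towards the immunosubunit. No test could reach 0.05 at this size. Within the pair with the lower share, PSMB6 rose by 0.60 and PSMB9 changed by -0.16 on the log2 scale.

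**Figure D5:**
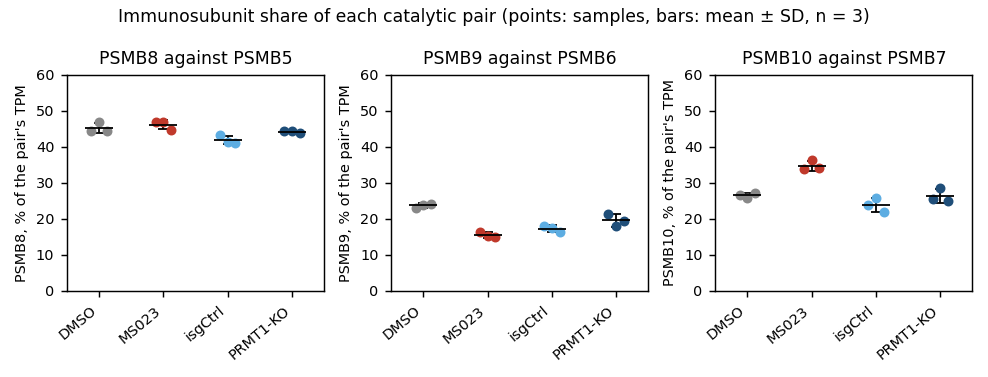
Immunosubunit share of the summed TPM of each catalytic pair, in percent, by group, where points are samples and bars are mean ± SD (n = 3). With MS023 the PSMB9 share lies at 14.9% to 16.3% against 23.0% to 24.2% in DMSO, and the PSMB10 share at 33.8% to 36.2% against 25.7% to 27.3%.

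The control groups were not at the same level, which bears on any reading across both arms. Between isgCtrl and DMSO, which share their samples with the comparisons above, 24 of the 48 members had an adjusted p under 0.05, 6 higher and 18 lower, beside 34.5% of all genes tested (21.5% higher, 13.0% lower). With 1 sample left out 15 to 21 passed, the lowest number without isgCtrl replicate 1 and without isgCtrl replicate 3. Called were 4 (8.33%), beside 13.9% of all genes (7.23% higher, 6.70% lower). They were PSMG3 (0.58) and PSMA8 (0.56) higher, PSMC2 (-0.53) and PSMB9 (-0.52) lower. PSMA8 lost its call in 4 of the 6 fits that left out 1 sample. All 5 immunoproteasome genes were lower in isgCtrl, 3 of them past the test (PSMB9, PSMB10 and PSME2), with sums of 1017 to 1063 TPM in DMSO and 866 to 879 TPM in isgCtrl. PSMB10 passed only without DMSO replicate 1 or isgCtrl replicate 2 among the 6 fits with 1 sample left out (limma, Benjamini-Hochberg adjusted p from 0.0246 to 0.0817). POMP was also lower, at -0.39. The summed TPM of all members was 11132 to 11442 in DMSO, 10894 to 11091 in MS023, 10436 to 10611 with the control guide and 10430 to 10632 in PRMT1-KO. MZB1, IRF1 (-1.18) and TAP1 (-0.43) were lower in isgCtrl as well, and their part in the members' levels was not tested.

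Genes that work with the proteasome were read from 4 lists, whose counts stand beside 18.4% of all genes higher and 30.4% lower with MS023. Of 16 factors that bind the proteasome or carry substrates to it, 4 rose and 2 fell with MS023. UCHL5, a deubiquitinase of the 19S cap, went from 163 ± 0.835 to 105 ± 5.73 TPM (SD, n = 3, log2 fold change -0.63), and UBQLN2, a shuttle factor, from 6.94 ± 0.339 to 9.84 ± 0.299 TPM (0.45). Of 6 genes for ubiquitin and its activating enzymes 2 rose and 1 fell, with UBA6, an activating enzyme, at -0.32. UBA6 passed only without MS023 replicate 3 among the fits with 1 sample left out, and not under median-ratio scaling or quantile normalization (limma, Benjamini-Hochberg adjusted p from 0.0233 to 0.109 over the 6).

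NFE2L1 is the transcription factor that raises proteasome genes when proteasome capacity is short, with small MAF proteins as partners. Of the 12 genes for NFE2L1, NFE2L2, the processing of NFE2L1 and its partners, 6 rose and 1 fell, with a median log2 fold change of 0.27. MAFF went from 5.51 ± 0.655 to 22.1 ± 0.498 TPM (log2 fold change 1.83, SE 0.09, limma, Benjamini-Hochberg adjusted p = 8.27e-05). NFE2L1 itself had 72.4, 72.4 and 62.7 TPM with DMSO and 108, 81.6 and 126 TPM with MS023 (log2 fold change 0.58, SE 0.17, limma, Benjamini-Hochberg adjusted p = 0.0301). The treated samples were spread more widely than those of most members, and with 1 sample left out it passed only without MS023 replicate 2 (limma, Benjamini-Hochberg adjusted p from 0.00708 to 0.087).

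Of 8 regulators and genomic neighbours of the immunoproteasome 3 rose and 1 fell. IRF1, an interferon-responsive activator of these genes, went from 38.0 ± 3.59 to 72.3 ± 7.45 TPM (log2 fold change 0.91, SE 0.11, limma, Benjamini-Hochberg adjusted p = 0.0012). ERAP2, a peptide-trimming enzyme, had the largest change at 0.95. TAP1, the peptide transporter gene beside PSMB9, was 104 ± 1.46 TPM with DMSO and 108 ± 3.71 TPM with MS023 (0.04, not past the test). In PRMT1-KO cells no gene of the 4 lists passed the limma test after adjustment, beside 1.28% of all genes. In the same fit 1 proteasome-bound factor and 1 gene of the NFE2L1 list had an unadjusted p under 0.05, beside 18.6% of all genes.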

How the data were processed

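Values in log2(TPM+1) per gene symbol were deposited by the authors, who used Trimmomatic for trimming, STAR for alignment (hg38, GENCODE V35) and Salmon for quantification. Whether quantification used strand is not given in the sources used here. Members and gene lists were chosen with earlier results of these data known. Each comparison was a limma fit (version 3.58.1, R 4.3.3, eBayes with no trend) of its own 6 samples over all genes with a group mean above 1, with the thresholds of the study's methods, and the difference of effects used 12 samples. With MS023, 3986 genes were called, several times the number of differentially expressed genes that the study reported. In the knockout 96 were called, close to the study's number. The cause of the MS023 difference was not tested. Catalytic pairs were compared by two-sided exact permutation tests in Python 3.11.15. Described in full are the catalytic and PA28 genes, POMP and, per main comparison, the 5 members with the largest change past an adjusted p of 0.05; other members are given by class with up to 4 names, and each related list with its 2 largest changes plus NFE2L1, IRF1 and TAP1, less 2 genes counted but not reported here by name. Alternatives covered filters, a pseudocount of 0.1, scaling, variance trend, a replicate block and leaving out each sample. Positions are from GENCODE v44, promoters from RefSeq (GRCh38.p14). The code was tested on simulated data.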

Additional observations from a re-analysis of the deposited data

Results flagged for a closer look

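For 7 members the effect of MS023 minus that of the PRMT1 knockout, each against its own control, was past the test and the fold threshold in the fit of all 12 samples. The difference on the log2 scale was 0.59 for PSMB6, 0.59 for PSMC4, -0.50 for PSMG1, -0.57 for PSMG2, -0.63 for PSMG3, -0.97 for PSMG4 and -0.57 for PSMD10. For PSMG1, PSMG2, PSMD10 and PSMC4 the knockout effect itself was between -0.07 and 0.10. PSMG1 was not called under median-ratio scaling, under quantile normalization or without PRMT1-KO replicate 3, and the other 6 were called in all of the 19 alternatives run.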

How the results depend on the processing

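The deposited values hold no read counts, so the depth behind each is unknown from them, although the study's methods give a minimum number of read pairs, and 3 samples a group limit the precision. Without the fold threshold, members past the test numbered 6 higher and 15 lower with MS023, 1 lower in PRMT1-KO, 6 higher and 18 lower between isgCtrl and DMSO, and 4 higher and 16 lower for the difference of effects. Leaving out 1 sample gave 1 to 2 members called higher with MS023 (1 without MS023 replicate 3, which lost PSMC4) and 1 to 2 between isgCtrl and DMSO. The latter count was also 1 with all genes above 0 fitted and with the replicate block, PSMA8 being lost. PRMT1 in MS023 turned to -0.0298 under quantile normalization. Signs turned in 8 of 48 members with MS023 and in 11 in the knockout under median-ratio scaling, and in 3 and 9 under quantile normalization, none of them past the test under either scaling. Of the members described in full these were, with MS023, PSMB5 (0.0317), PSMB8 (0.0837) and PSME2 (0.0763) under median-ratio scaling, and PSMB8 (0.0550) and PSME2 (0.0023) under quantile normalization. In the knockout it was PSMB7 of those described in full, under median-ratio scaling (0.0064) and quantile normalization (0.0246). With 1 sample left out PSMB8 ranged from -0.0553 to 0.0100 with MS023, and in the knockout PSMB6 from -0.0149 to 0.0303, PSMB7 from -0.0605 to 0.0052 and POMP from -0.0266 to 0.0706. The cause was not tested.

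Replicate numbers are shared between groups, so the deviations of samples from their group means were correlated between groups. For MS023 and DMSO the mean r was 0.07 for same-numbered samples (0.02 to 0.10) and -0.03 for other-numbered samples (-0.10 to 0.03). It was -0.05 (-0.14 to 0.07) and 0.02 (-0.10 to 0.17) for PRMT1-KO and isgCtrl. For isgCtrl and DMSO it was -0.10 (-0.23 to -0.03) and 0.05 (-0.10 to 0.13). Same-numbered samples were thus slightly closer for MS023 and DMSO only, with every r small there. With the replicate block the same 8 members were called with MS023, and 17 of the 21 still passed the test, PSMB2, PSMB4, PSMC5 and PSMD14 being the exceptions. Between isgCtrl and DMSO 13 members (27.1%) passed with the block, beside 24.6% of all genes, and the 11 that did not included PSMB10 and PSME2. In the knockout the block left 0 of the 12285 genes past an adjusted p of 0.05 in limma and 2054 at an unadjusted p under 0.05. PRMT1 there kept its log2 fold change of -1.50 (limma, Benjamini-Hochberg adjusted p = 0.149), and PSMG4 had a limma, Benjamini-Hochberg adjusted p of 0.184.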

Other observations

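Of the 49 members 14 have pseudogenes in the table, 35 in all. PSMC1 alone had pseudogenes with over 1% of its own TPM, at 18.5% in DMSO over 13 pseudogenes, so its level is less certain in this respect. NRDE2, on the opposite strand, also overlaps 76.1% of PSMC1's exon bases. It was at 2.44 TPM in DMSO, and whether quantification used strand is not given in the sources used here. Protein-coding gene models on the same strand overlap exon bases of PSMB10 (39.4%), PSMA1 (26.7%), PSMA2 (17.2%), PSMD9 (14.9%), PSMA6 (14.1%) and PSMC2 (1.30%). The effect of these overlaps on the levels was not tested. PSMG4 overlaps SLC22A23 on the opposite strand over 13.3% of its exon bases, and SLC22A23 was at 0.374 TPM in DMSO and 0.987 TPM in MS023 while PSMG4 fell. PSMC5, which rose with MS023, shares 15.3% of its exon bases with FTSJ3 on the opposite strand. FTSJ3 was at 40.4 TPM in DMSO and 55.7 TPM in MS023, and any part of it in that rise was not tested.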
